A study of Homo sapiens with 24 samples.

Results

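The comparison described here sets Huh7 cells treated with an extract of P. umbellatus (Polyporus umbellatus, ZL in the labels) against Huh7 control cells. It rests on 6 of the 24 RNA-seq libraries of the series, 3 per group, and on the 13724 of 14585 genes in the deposited table whose mean count over these 6 libraries was above 5. Huh7 is a human hepatocellular carcinoma line with mutant p53, and P. umbellatus is a medicinal fungus whose dried body was extracted with ethanol and taken up in DMSO. The dose and time used for the sequenced cells, and whether the control cells received DMSO, are not given in the sources used here. The other groups used for contrast were Huh7 cells treated with P. chinensis (BTW) or B. chinense (CH), and A549 lung carcinoma cells with P. umbellatus or as control, 3 libraries each. Nothing in the labels says that replicates came from separate cultures, so p-values measure the spread between these libraries only.

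Hepatoma cells such as Huh7 keep much of the hepatocyte programme: they make plasma proteins and lipoproteins, synthesise cholesterol and fatty acids under the SREBP transcription factors, and detoxify foreign compounds. Sterol depletion releases SREBP from the endoplasmic reticulum and raises the cholesterol synthesis genes, while sterol excess lowers them. Planar aromatic compounds bind the aryl hydrocarbon receptor (AhR), which raises the cytochrome P450 genes of the CYP1 family, and electrophiles stabilise NRF2, which raises genes of glutathione and thioredoxin metabolism.

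Sequences are shown from promoters of genes in 2 pathways described below, AhR-responsive genes (higher) and cholesterol synthesis genes (lower). Each is the 250 bases before the RefSeq start of the gene (GRCh38.p14), read 5′ to 3′ on the strand of the gene. In CYP1A1 (chr15:74725529-74725778, minus strand) and TIPARP (chr3:156674340-156674589, plus strand), the capitals mark GCGTG, the core of the AhR site, on either strand (CACGC on the other strand):
CYP1A1: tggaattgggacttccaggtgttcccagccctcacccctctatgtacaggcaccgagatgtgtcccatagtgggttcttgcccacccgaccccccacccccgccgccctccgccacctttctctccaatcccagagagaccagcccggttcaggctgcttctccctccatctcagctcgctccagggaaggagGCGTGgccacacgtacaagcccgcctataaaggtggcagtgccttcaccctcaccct
TIPARP: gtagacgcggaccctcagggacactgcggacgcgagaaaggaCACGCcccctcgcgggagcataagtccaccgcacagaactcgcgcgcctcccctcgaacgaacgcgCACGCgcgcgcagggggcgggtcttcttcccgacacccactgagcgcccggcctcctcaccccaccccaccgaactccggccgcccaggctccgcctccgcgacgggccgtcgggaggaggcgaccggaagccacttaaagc

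In the cholesterol genes MVK (chr12:109573544-109573793, plus strand), MVD (chr16:88663092-88663341, minus strand), FDPS (chr1:155308616-155308865, plus strand) and EBP (chrX:48521558-48521807, plus strand), the capitals mark CCAAT on either strand (ATTGG on the other strand), the box bound by NF-Y, a known partner of SREBP at sterol promoters:
MVK: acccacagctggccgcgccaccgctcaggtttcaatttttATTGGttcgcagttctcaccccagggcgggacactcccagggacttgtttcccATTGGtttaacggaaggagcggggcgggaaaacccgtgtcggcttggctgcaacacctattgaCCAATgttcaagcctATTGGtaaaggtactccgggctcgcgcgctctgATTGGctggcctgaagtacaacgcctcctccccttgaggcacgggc
MVD: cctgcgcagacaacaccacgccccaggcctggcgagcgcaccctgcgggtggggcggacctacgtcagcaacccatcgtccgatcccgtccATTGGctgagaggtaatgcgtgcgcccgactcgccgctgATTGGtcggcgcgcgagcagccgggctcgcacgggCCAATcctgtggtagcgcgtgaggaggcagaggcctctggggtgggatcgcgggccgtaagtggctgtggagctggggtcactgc
FDPS: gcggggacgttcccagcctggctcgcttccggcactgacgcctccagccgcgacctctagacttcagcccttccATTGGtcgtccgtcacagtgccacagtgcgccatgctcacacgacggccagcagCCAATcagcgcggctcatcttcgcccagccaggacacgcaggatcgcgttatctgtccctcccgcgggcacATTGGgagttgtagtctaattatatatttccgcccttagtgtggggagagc
EBP: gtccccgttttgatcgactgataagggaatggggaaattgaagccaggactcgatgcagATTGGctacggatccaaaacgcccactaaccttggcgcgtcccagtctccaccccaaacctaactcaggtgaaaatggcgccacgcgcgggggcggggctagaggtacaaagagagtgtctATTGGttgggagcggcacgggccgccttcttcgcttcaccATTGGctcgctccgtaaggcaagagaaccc

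Windows of the same length were at hand for 11141 of the tested genes. Among them 35.4% held CCAAT, against 17 of 22 promoters of the cholesterol list (77.3%). The GCGTG core stood in 43.9% of all these promoters, in 18 of the 22 cholesterol promoters and in 7 of 25 promoters of the xenobiotic list. A match of letters is a description and not a binding site.

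The 3 treated libraries were shallower than the controls and differed among themselves. They summed to 7182444 to 10328734 counts, against 16455709 to 24345541 in the controls. In every treated library, levels relative to the controls fell with the GC content of the transcript. Pearson's r across genes, which are not independent replicates, was -0.441, -0.66 and -0.373 in treated replicates 1, 2 and 3, against -0.104 to -0.047 in the libraries of the other extracts in Huh7 cells. Transcripts with a GC content of 58.0% or more had a median log2 ratio to the controls of -0.553, -1.22 and -0.348, so replicate 2 lay farthest off. The chi-square statistic per gene, relative to sampling error, had a median of 5.79 between replicates 1 and 3 and of 15.6 and 20.9 for the pairs with replicate 2. The corresponding range among the controls was 2.97 to 3.43. Mitochondrially encoded genes took 3.91% of the counts in treated replicate 1, 2.41% and 2.55% in the other treated libraries and 1.93% to 2.26% in the controls. Each gene was therefore tested as counted and again after each library was corrected for GC content and transcript length, and genes called in both fits with the same direction are given the most room. Which part of the trend came from the treatment and which from the libraries cannot be told apart, since every treated library carries it.

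**Figure D1:**
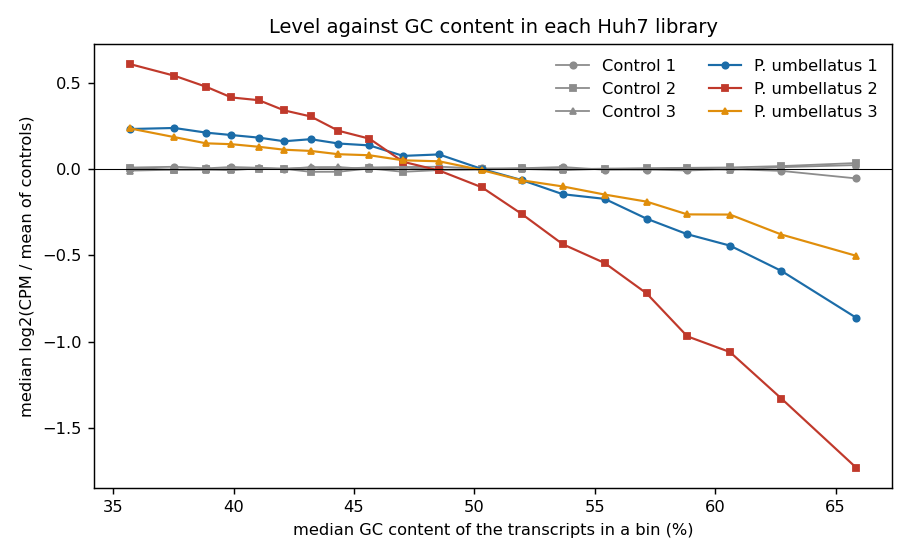
Median log2 ratio of the normalised level to the mean of the controls (vertical axis) for genes in 20 bins of transcript GC content (horizontal axis, percent), 1 line per Huh7 library. The 3 control lines stay near 0, while the 3 P. umbellatus lines fall from left to right, most steeply in replicate 2.

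All 15 hepatocyte markers on the list were measured. As counted 6 of them fell and 1 rose, with a median log2 fold change of -0.42, and after the correction 4 fell and none rose (0), with a median of -0.10. All 3 treated libraries lay below all controls for 9 of the 15. The summed level of the markers was 20960 to 25230 CPM (counts relative to the library total as scaled by edgeR's TMM method) with P. umbellatus and 22960 to 23660 CPM in the controls. The most abundant marker, APOB (apolipoprotein B), had a mean of 11000 CPM in the controls and 12490 CPM with the extract and did not pass the test, while AHSG and SERPINA1 fell in both fits. Of the 11 A549 markers, 4 passed the filter, and the keratins KRT81 and KRT7 and the mucin MUC5AC did not. Those 4 summed to 1242 to 1266 CPM in the controls and 1216 to 1500 CPM with the extract. Of 9 cholangiocyte and progenitor markers 7 passed, with sums of 877 to 913 CPM in the controls and 797 to 928.5 CPM with the extract. The markers of fibroblasts summed to at most 40.6 CPM in any library and those of endothelium to at most 55.5 CPM, most of it PECAM1. Among immune markers, LYZ (lysozyme, which Huh7 cells express) carried nearly all of the sum, and the sum was lower with the extract (388.6 to 499.0 CPM) than in the controls (732 to 774 CPM).

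P. umbellatus raised 539 genes (3.93%) and lowered 719 (5.24%), 1258 in all (9.17%), in a two-sided quasi-likelihood test (edgeR, Benjamini-Hochberg adjusted p under 0.05). After the correction for GC content and transcript length, 698 genes (5.09%) were higher and 596 (4.34%) lower, so the share of higher genes among the calls moved above that of lower genes. In both fits, 324 genes (2.36%) were higher and 340 (2.48%) lower, and no gene was called in opposite directions (0 genes). Without regard to a test, all 3 treated libraries lay above all 3 controls for 22.9% of the genes and below them for 25.3%. Called genes changed by a median of 0.762 in absolute log2 fold change, and 64 rises and 316 falls were at least 1 on the log2 scale.

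These counts depended strongly on single libraries. As counted, 1 gene at most was called in each direction when control replicate 1, 2 or 3 or treated replicate 1 was left out, against 1335 higher and 1809 lower without treated replicate 2, and 1565 and 2041 without treated replicate 3. With the correction, an alternative added after seeing the data, the counts were 87 and 121, 103 and 126, and 76 and 102 without control replicate 1, 2 and 3, and 478 and 435, 658 and 665, and 972 and 780 without treated replicate 1, 2 and 3. The gene called lower in every one of the uncorrected fits was DLK1, described below, and C1orf52 (log2 fold change 2.81, adjusted p = 0.0246 from edgeR) was the rise called without control replicate 1. For the genes named below, levels and sizes are therefore given with the calls.

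Among the genes with the largest falls in both fits were DLK1, a gene of fetal liver, and genes of iron, zinc and amino acid handling. DLK1, a Notch-like membrane protein of hepatoblasts (chr14:100725705-100738224, plus strand, GRCh38), stood at 84.1, 85.2 and 89.8 CPM in the controls and at 17.4, 16.4 and 20.4 CPM with P. umbellatus. The fall was even over the treated libraries, with a log2 fold change of -2.25 ± 0.12 (SE, n = 3 per group, adjusted p = 0.00168 from edgeR) and of -1.97 after the correction. TFR2, the hepatocyte's transferrin receptor 2 and an iron sensor (chr7:100620416-100642779, minus strand), was at 8.08, 6.6 and 6.75 CPM in the controls, at 0 CPM in 2 treated libraries and at 0.386 CPM in the other (adjusted p = 0.0197). No fold is given for it, since the treated level rests on so few counts. SERPING1, the inhibitor of complement C1, fell from 7.68, 15.03 and 10.7 CPM to 2.50, 0 and 0.193 CPM. NAGS, which makes the activator of the urea cycle, fell from 25.7, 25.2 and 27.3 CPM to 6.77, 5.10 and 6.85 CPM, a log2 fold change of -2.03 ± 0.16 (-1.22 corrected).

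SHMT1, the cytosolic serine hydroxymethyltransferase, was at 10.9, 34.8 and 32.6 CPM in the controls and at 6.42, 2.07 and 5.79 CPM with the extract, and control replicate 1 lay near the treated libraries. SLC39A5, a zinc importer of liver and gut, fell from 42.6 to 45.3 CPM to 4.96 to 12.8 CPM. MLLT6, a chromatin-associated partner gene of MLL fusions, fell from 20.7, 28.7 and 52.7 CPM to 2.73, 1.24 and 4.44 CPM, with a log2 fold change of -3.50 ± 0.49. SOCS1, a feedback inhibitor of cytokine signalling, was at 9.73 to 15.1 CPM in the controls and 1.38 to 3.96 CPM with the extract. RNPEPL1, an aminopeptidase-like gene, gave log2 fold changes of -2.43 as counted and -1.82 corrected, and AMDHD2, which acts on N-acetylglucosamine phosphate, -2.43 and -1.65. NEU4 (a sialidase), SLC12A9, C2orf72, SAC3D1 and ATXN7L2 also fell in both fits, with corrected log2 fold changes between -2.36 and -0.99. For the readthrough PPAN-P2RY11 the counts are uncertain, because it shares its exons with PPAN and P2RY11.

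The 15 largest rises in both fits included ANKRD13D, CYP1B1, MUC13, PRPF39 and TUBA1A, in order of the fitted change. MUC13, a membrane mucin of epithelia (chr3:124905442-124953819, minus strand), rose from 4.09, 4.28 and 4.01 CPM to 14.1, 14.9 and 16.1 CPM, a log2 fold change of 1.83 ± 0.15 (adjusted p = 0.00901, edgeR) and 1.73 corrected. F2RL1, the protease-activated receptor 2, rose from 25.3, 26.6 and 24.33 CPM to 69.3, 74.7 and 59.4 CPM (1.41 ± 0.12). CD44, the hyaluronan receptor, rose from 5.89, 4.58 and 6.46 CPM to 16.8, 14.9 and 13.8 CPM (1.40 ± 0.19). NTN4, a netrin of basement membranes, rose from 9.33 to 10.7 CPM to 25.2 to 27.2 CPM (1.35 ± 0.13). All 4 kept a gap between the highest control and the lowest treated library.

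IDS, the lysosomal iduronate sulfatase, rose by 1.52 ± 0.20 on the log2 scale, SLC25A24, a mitochondrial ATP-magnesium carrier, by 1.53 ± 0.36, GLIPR1 by 1.37 ± 0.21, PRPF39, a U1 snRNP factor, by 1.77 ± 0.39, and DTD1, a D-aminoacyl-tRNA deacylase, by 1.27 ± 0.28. SLC25A24 was the least even, at 34.2, 43.7 and 14.9 CPM with the extract and 9.19 to 12.7 CPM in the controls. RSC1A1 (1.51 ± 0.23) lies within DDI2 on the same strand, and TUBA1A (1.59 ± 0.28) is nearly identical to other alpha-tubulin genes, so their reads cannot be told apart with certainty. ANKRD13D was at 0, 1.53 and 0 CPM in the controls and at 13.2, 8.68 and 16.2 CPM with the extract, and no fold is given for it.

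Of the 32 measured genes of xenobiotic metabolism, 6 rose and 1 fell, and after the correction 6 and 2. Rises made up 18.8% of the list in either fit, against 3.93% and 5.09% over all genes. CYP1A1, the best known AhR-responsive P450 (chr15:74719542-74725536, minus strand), stood at 134, 127 and 135 CPM in the controls and at 392.4, 297 and 407 CPM with P. umbellatus. Its log2 fold change was 1.47 ± 0.13 (adjusted p = 0.00909, edgeR) and 1.68 after the correction (adjusted p = 2.76e-05). CYP1B1, its close relative (chr2:38066973-38109902, minus strand), rose from 2.69, 2.20 and 2.81 CPM to 14.97, 13.6 and 11.96 CPM, a log2 fold change of 2.33 ± 0.19. The groups did not overlap for either gene, and the treated libraries lay close together.

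TIPARP, a member of the poly(ADP-ribose) polymerase family that feeds back on AhR, rose from 40.2, 46.6 and 41.4 CPM to 84.8, 88.3 and 77.8 CPM (0.97 ± 0.10). UGT1A1, the bilirubin glucuronosyltransferase, rose from 7.53, 6.42 and 9.19 CPM to 23.5, 22.2 and 22.2 CPM (1.53 ± 0.17), though it shares its last exons with the other UGT1A genes. Efflux pumps moved less, ABCB1 by 0.45 ± 0.09 and ABCG2 by 0.45 ± 0.10, the latter as counted only. SULT1A1, a phenol sulfotransferase, was the gene that fell in both fits (-0.99 ± 0.22). CYP1A2, at a mean of 5.96 CPM in the controls, had a log2 fold change of -0.06 (adjusted p = 0.851), and AHRR, the AhR repressor, of -0.16 (adjusted p = 0.822) at a mean of 1.69 CPM. CYP1A1, CYP1B1 and TIPARP were therefore higher, but not every gene known to respond to the receptor was.

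Of 31 NRF2 target genes, 7 rose and none fell (0), and after the correction 12 rose and 2 fell. The other 24 did not pass as counted. All 3 treated libraries lay above all controls for 11 of the 31 (35.5%, against 22.9% of all genes). They lay below all controls for 7 (22.6%, against 25.3% of all genes). HMOX1, haem oxygenase, rose from 31.0, 35.6 and 31.7 CPM to 88.1, 51.9 and 96.3 CPM (1.27 ± 0.22), least in treated replicate 2. TXNRD1, thioredoxin reductase, rose from 504, 517 and 490.4 CPM to 768, 757 and 715 CPM (0.57 ± 0.08). GCLC and GCLM, the subunits of the enzyme that limits glutathione synthesis, rose by 0.60 ± 0.10 and 0.55 ± 0.13, and SRXN1, sulfiredoxin, by 0.47 ± 0.08. NFE2L2, which encodes NRF2 itself, rose by 0.48 ± 0.11. The genes that were lower after the correction were NQO1 (-0.26) and SLC7A11 (-0.26), so the list did not move as a whole, and its median log2 fold change was 0.13 as counted and 0.22 corrected.

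Of 33 NF-kB and inflammatory genes, 6 rose and none fell (0), and 8 and 0 after the correction. The shares of rises were 18.2% and 24.2%, against 3.93% and 5.09% over all genes. The median log2 fold change of the list was 0.0197 as counted and 0.309 corrected. All 3 treated libraries lay above all controls for 12 of the 33 genes and below them for 7. BIRC3, an inhibitor of apoptosis, rose from 1.65, 1.34 and 1.24 CPM to 4.16, 4.68 and 5.88 CPM (1.71 ± 0.25). The chemokine CXCL8 rose from 25.3, 27.5 and 23.6 CPM to 37.4, 60.7 and 50.4 CPM (0.95 ± 0.18), and CXCL5 by 0.75 ± 0.11. The feedback inhibitor TNFAIP3 rose by 0.92 ± 0.18 and NFKBIZ by 0.67 ± 0.10. Of 34 immediate early and AP-1 genes, 4 rose and 1 fell as counted, and 13 rose and 1 fell after the correction. The 4 were FOSB (1.05 ± 0.20), DUSP1 (0.90 ± 0.17), KLF10 (0.76 ± 0.11) and KLF6 (0.58 ± 0.09). Rises made up 11.8% of this list as counted and 38.2% corrected. The list median was 0.0847 as counted and 0.296 corrected, and in treated replicate 2 it was -0.234 as counted. All 3 treated libraries lay above all controls for 8 of the 34 genes and below them for 8. These shares were 23.5% each, against 22.9% and 25.3% over all genes.

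YAP and TGF-beta responsive genes gave 7 rises and 1 fall of 32 (10 and 0 corrected), among them ANKRD1 (0.61 ± 0.13), ID2 (0.60 ± 0.11), CRIM1 (0.49 ± 0.09) and THBS1 (0.41 ± 0.08). In the matrix and adhesion list, CDH2 (N-cadherin) rose by 0.52 ± 0.10 and CDH1 (E-cadherin) fell by 0.52 on the log2 scale. CDH1 went from 74.2, 77.3 and 72.5 CPM to 57.4, 49.4 and 49.2 CPM, and CDH2 from 158, 171 and 162 CPM to 236, 260.3 and 207 CPM. TIMP3 and LAMA3 rose by 0.58 ± 0.09 and 0.78 ± 0.16. Over this list of 40, 4 genes rose and 4 fell, or 10% each, against 3.93% and 5.24% over all genes. In the YAP and TGF-beta list the rises as counted were 21.9%.

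**Figure D2:**
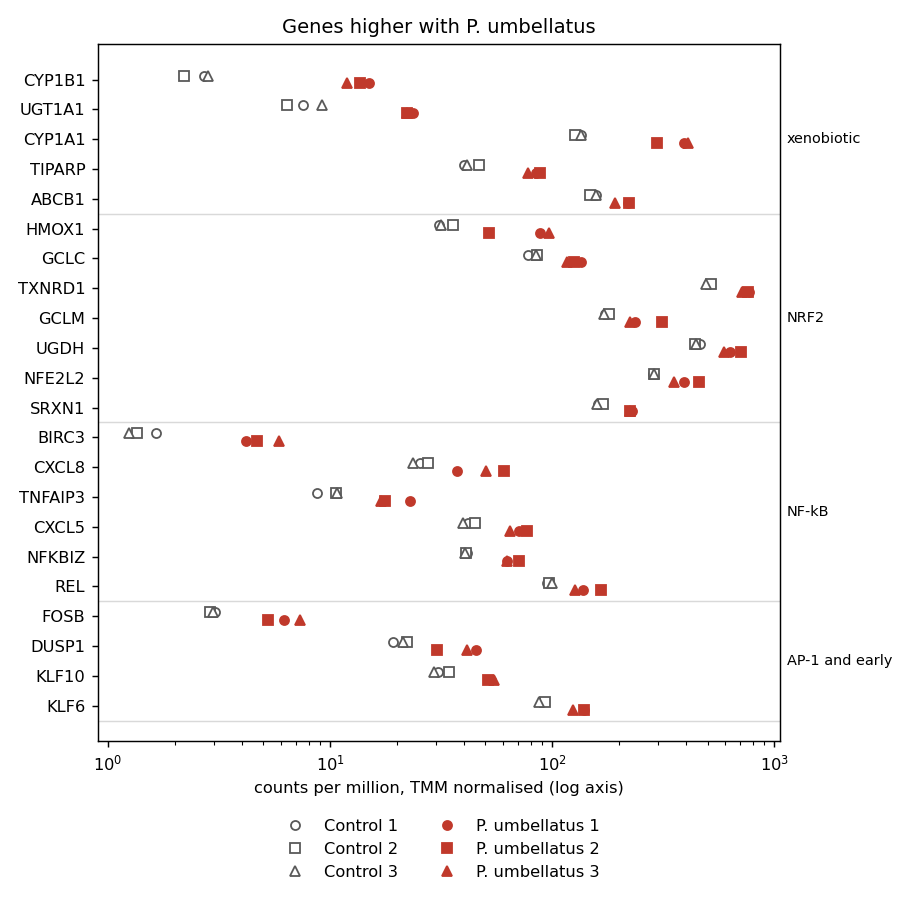
Normalised level (horizontal log axis, CPM) of genes that rose in both fits, 1 row per gene, with the 3 control libraries as open symbols and the 3 P. umbellatus libraries as filled ones, and the marker shape giving the replicate number. In every row the filled symbols lie to the right of the open ones; CYP1B1, for example, moves from 2.20 to 2.81 CPM to 11.96 to 14.97 CPM.

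Of 29 measured genes of cholesterol synthesis and uptake, 11 fell and none rose (0), and 20 fell and none rose (0) after the correction, with a median log2 fold change of -0.40 and -0.44, against -0.000432 and 0.037 over all genes tested. In the corrected values the medians of the list in treated replicates 1, 2 and 3 were -0.572, -0.431 and -0.433, so the list did not rest on replicate 2. Without that library 22 genes fell and 1 rose as counted, and 19 and 0 corrected. All 3 treated libraries lay below all controls for 20 of the 29 genes.

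Along the pathway, MVK (mevalonate kinase) fell from 59.4, 63.4 and 61.5 CPM to 28.8, 15.4 and 25.9 CPM. MVD (mevalonate decarboxylase) fell from 154, 146 and 152 CPM to 47.2, 26.3 and 65.5 CPM. The corrected log2 fold changes of these genes, whose promoters are shown above, were -0.81 and -0.76, with values of -0.634, -0.874 and -0.936 for MVK and -0.809, -0.811 and -0.679 for MVD in treated replicates 1, 2 and 3.

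FDPS, which makes farnesyl diphosphate, changed by -0.84 ± 0.13, LSS (lanosterol synthase) by -1.13 ± 0.17, CYP51A1 by -0.40 ± 0.09, EBP by -0.90 ± 0.15, DHCR7 by -0.81 ± 0.14 and SQLE (squalene epoxidase) by -0.39 ± 0.08. INSIG1, which retains SREBP in the endoplasmic reticulum and is itself an SREBP target, fell from 211, 203 and 204 CPM to 122, 138 and 123 CPM (-0.69 ± 0.09, -0.79 corrected). NPC1L1, the sterol transporter, changed by -0.995 ± 0.19. HMGCS1, which makes HMG-CoA, was lower only after the correction (-0.59). As counted its log2 fold change was -0.32 (adjusted p = 0.103).

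Of 29 genes on the list of LXR and fatty acid synthesis genes, 10 fell and none rose (0), and 15 fell and none rose (0) after the correction. SCD, the stearoyl-CoA desaturase and one of the most abundant mRNAs of these cells, fell from 4141, 3965 and 4053 CPM to 2692, 2571 and 2840 CPM, a log2 fold change of -0.59 ± 0.07 (-0.67 corrected). FADS2 and FADS1, the delta-6 and delta-5 desaturases, changed by -1.25 ± 0.18 and -0.53 ± 0.08. FASN, fatty acid synthase, fell from 3040, 3020 and 2927 CPM to 1313, 777 and 1718 CPM. Its log2 fold change of -1.24 ± 0.25 shrank to -0.37 after the correction, with values of -0.48, -0.35 and -0.30 in the treated libraries.

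SREBF1 (-1.11 ± 0.27), PNPLA3 (-0.98 ± 0.16), DGAT1, DGAT2 (-0.70 ± 0.14) and ACLY (-0.39 ± 0.08) were lower in both fits. The LXR targets ABCA1, MYLIP and LPCAT3 on the same list did not pass the edgeR test. ABCA1 had a log2 fold change of 0.20 (adjusted p = 0.137), MYLIP of 0.49 (adjusted p = 0.0627) and LPCAT3 of -0.12 (adjusted p = 0.602). Among 29 genes of fatty acid oxidation and ketone synthesis, 1 rose and 3 fell (3.45% and 10.3%, against 3.93% and 5.24% over all genes). CPT1A, which admits fatty acids to mitochondria, was the rise, from 16.5, 16.9 and 16.4 CPM to 36.7, 36.2 and 29.1 CPM (1.03 ± 0.14, 1.10 corrected).

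**Figure D3:**
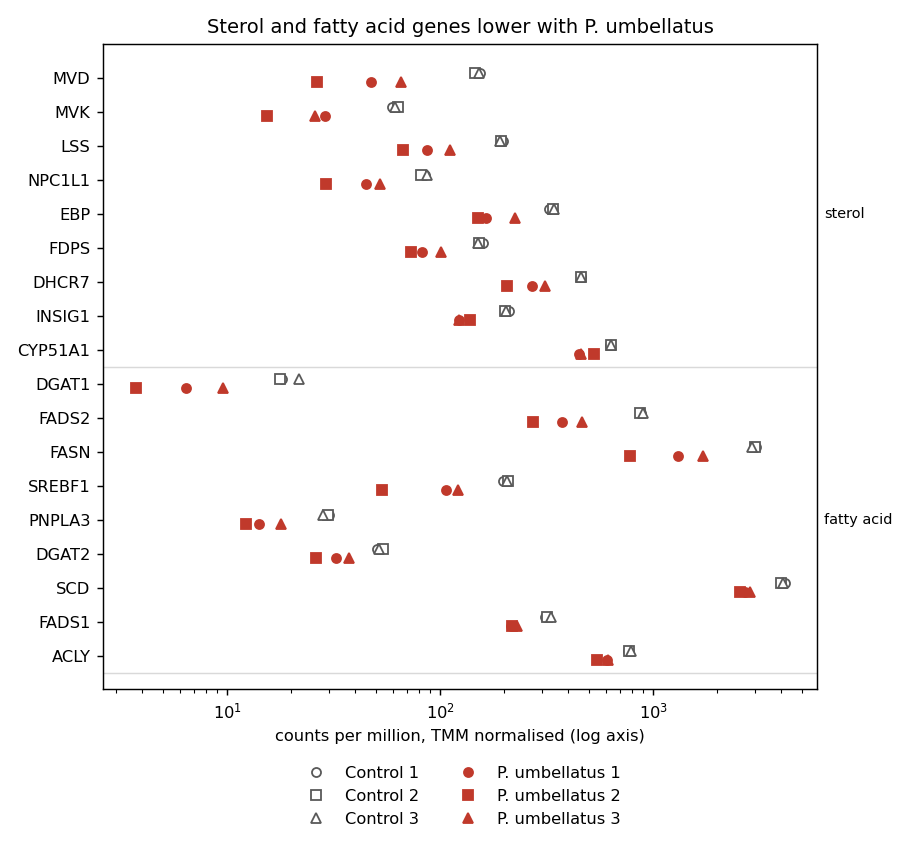
Normalised level (horizontal log axis, CPM) of 9 sterol genes and 9 fatty acid genes that fell in both fits, with controls as open symbols and P. umbellatus libraries as filled ones. The filled symbols lie to the left of the open ones in every row, and replicate 2 (squares) is the lowest treated library for FASN, at 777 CPM.

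Of 46 plasma protein genes, whose products hepatocytes secrete, 17 fell and 2 rose, with 20 and 1 after the correction and medians of -0.51 and -0.35. AHSG (fetuin-A) fell from 438, 407 and 429 CPM to 159, 144 and 186 CPM, a log2 fold change of -1.38 ± 0.11 (adjusted p = 0.00901, edgeR) and -1.05 corrected. TF, transferrin, fell from 652, 659 and 655 CPM to 434, 355 and 442 CPM (-0.68 ± 0.10). A1BG (-1.60 ± 0.22), SERPINA3 (-1.30 ± 0.17), PROC (protein C, -1.37 ± 0.28) and HPX (hemopexin, -1.13 ± 0.26) were lower in both fits. The acute-phase genes ORM1 and ORM2, which are nearly identical, changed by -0.92 ± 0.11 and -1.02 ± 0.13, with counts that may be split between them. ALB, albumin, overlapped between groups as counted, at 3183 to 4819 CPM against 4643 to 4816 CPM. Its log2 fold change was -0.26 (adjusted p = 0.218), and it was called lower after the correction (-0.45, adjusted p = 0.0256).

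FGA and FGB, fibrinogen chains, went the other way: FGA rose from 542 to 583 CPM to 689 to 808 CPM (0.40 ± 0.09 in either fit), and FGB rose by 0.41 ± 0.10 as counted only. Apolipoprotein genes fell as counted (4 of 26, none higher), but APOA1 (-0.96 ± 0.24) and APOA2 (-0.54 ± 0.12) were at -0.10 and -0.09 after the correction, and 2 genes of that list fell in both fits, among them APOC1 (-1.12 and -0.49). The same held for the hepatocyte transcription factors, of which 7 of 26 fell as counted and 4 after the correction, with a median that moved from -0.36 to -0.05. CEBPA (-1.26 ± 0.26, -0.31 corrected) and FOXA3 fell in both fits. NR1H4, the bile acid receptor FXR, was lower only after the correction (-0.65, adjusted p = 0.00341).

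Amino acid and stress genes were mixed. Of 33 genes of amino acid catabolism and the urea cycle, 6 fell and 2 rose (8 and 2 corrected). Besides NAGS, GPT2 (-0.94 ± 0.14), ALDH4A1 (-1.23 ± 0.19), GLUL (-0.52 ± 0.09) and AMT (-0.75 ± 0.12) fell, and MAT2A (0.40 ± 0.08) was among the rises. Of 34 genes of the ATF4 response, 9 fell and none rose (0), among them the serine enzymes PHGDH (-1.09 ± 0.24) and SHMT2 (-0.92 ± 0.14), CHAC1 and STC2. After the correction 9 fell and 4 rose, and the rises included ATF3 (0.72), GDF15 (1.13) and PPP1R15A (0.92), of which GDF15 and PPP1R15A overlapped between groups as counted. Over all genes, 3.93% rose and 5.24% fell as counted. Heat shock genes gave 2 rises of 20 (10%), HSPH1 (0.85 ± 0.13) and HSPA8 (0.34 ± 0.08). Among autophagy and lysosome genes, 5 of 47 rose (10.6%) and 1 fell (2.13%), with RRAGC (0.92), FNIP1 (0.70) and CTSB (-0.50) as examples. In the proteasome list 1 of 39 rose (2.56%), namely PSMA5 (0.97), which is below the share over all genes. ER chaperone genes gave 1 rise (3.45%), ATF6 (0.66), and 3 falls of 29 (10.3%). The falls included CRELD2, whose value turned from -0.68 to 0.02 with the correction.

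Lists of GC-rich or GC-poor genes moved with the GC trend. The replication-dependent histone genes, with a median GC content of 58.1%, had a median log2 fold change of -0.85 with 24 of 61 lower. After the correction the median was -0.20 with 13 lower and 1 higher. Their mRNAs are nearly identical and may be counted for one another. Falls in both fits were found for 9 of them, such as H1-5 (-0.93 and -0.34) and H2AC21 (-1.33 and -0.64). The KRAB zinc finger genes, with a median GC content of 41.7%, showed the opposite: 42 of 269 rose and 3 fell as counted (median 0.38), and 24 and 2 after the correction (median 0.19). ZNF317 (0.72 ± 0.10) and ZNF121 rose in both fits, and ZNF709 fell.

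Without treated replicate 2, 69 genes of this list rose and 7 fell as counted (median 0.323), and 13 rose and 2 fell after the correction (median 0.183). The mitochondrial ribosomal protein genes fell 9 times of 76 as counted, with 2 falls in both fits, and MRPL55 (-0.78) and MRPL12 (-0.69) turned to 0.23 and 0.30 after the correction. Nuclear subunits of oxidative phosphorylation gave 6 falls of 76, 4 of them in both fits. Cytosolic ribosomal protein genes gave 2 of 80, RPL4 (-0.81) and RPL14 (-0.36). The shares of falls as counted in these 3 lists were 11.8%, 7.89% and 2.5%, against 5.24% over all genes. The last lay below that share and the second near it. Of 13 mitochondrially encoded genes, MT-CO1 rose (0.39) and MT-ND6 fell (-1.15). The corrected median of that list was 1.32 in treated replicate 1 against 0.00846 and 0.246 in the others, beside the higher mitochondrial share of that library.

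Few G2/M genes passed the test, 1.56% higher and 1.56% lower, against 3.93% and 5.24% over all genes. For the S phase genes these shares were 3.7% and 7.41%. After the correction they were 3.7% and 9.26%, against 5.09% and 4.34% over all genes. Of 64 G2/M and mitotic genes, 1 rose (SGO2, 0.57) and 1 fell (UBE2C, -0.49), with a median of 0.14 as counted and 0.00175 corrected. Without treated replicate 2, 11 rose and 5 fell as counted, and 2 and 3 corrected. Of 54 S phase genes, 2 rose and 4 fell (2 and 5 corrected): RRM2, the small subunit of ribonucleotide reductase, rose from 156, 185 and 186 CPM to 257, 283 and 286.5 CPM (0.65 ± 0.10), and E2F7, a repressor of the E2F family, by 0.73 ± 0.14. MCM2 (-0.52) and CDT1 (-0.93) were lower as counted only. Without treated replicate 2, 2 S phase genes rose and 15 fell as counted, and 2 and 8 after the correction. E2F1 had a log2 fold change of -0.69 (adjusted p = 0.0828), and of -0.02 corrected, and TFDP1 of 0.10 (adjusted p = 0.49). Of 38 p53 target genes, 4 rose and 1 fell, and PLK2 (0.87 ± 0.16) and PTP4A1 (0.59 ± 0.14) rose in both fits. CDKN1A, the p21 gene, had a log2 fold change of 0.15 (adjusted p = 0.661), and BAX went from -0.84 as counted to -0.06 corrected.

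The remaining lists stand beside shares of 3.93% higher and 5.24% lower over all genes as counted. Glucose handling genes lay above the latter, with 19.4% lower and 54.8% below all controls (25.3% over all genes). The others gave at most 2 calls in either direction as counted. Of 22 genes of bile acid synthesis and transport, 2 fell as counted and 2 others after the correction, and of 31 glucose handling genes 6 fell (3 of them in both fits, among them GPI at -0.48 and PFKM at -0.51). Interferon-stimulated genes gave 1 fall of 31, IFI35 (-1.72). Hypoxia genes gave 2 rises, among them KDM3A (0.68), and 1 fall of 25. Metal handling genes gave 2 falls of 21, splicing factors 2 rises of 54, and aminoacyl-tRNA synthetases 2 falls of 23.

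Leaving out treated replicate 2 raised most counts of calls as counted and moved the corrected ones less. Over all genes this alternative was planned as counted, and its corrected form was added after seeing the data. After the correction, 21 plasma protein genes fell and 1 rose without it, 16 fatty acid genes fell and none rose (0), and 13 NRF2 targets rose and 2 fell. NF-kB genes gave 9 rises and 0 falls, immediate early genes 14 and 1, and YAP and TGF-beta responsive genes 10 and 0. Over all genes tested, the falls as counted went from 719 to 1809 and the rises from 539 to 1335. Larger counts were therefore not particular to the lists. The falls went from 17 to 24 for plasma proteins, from 10 to 17 for fatty acid genes and from 4 to 10 for apolipoproteins. They went from 7 to 11 for hepatocyte transcription factors and from 9 to 16 for ATF4 genes. For amino acid genes they went from 6 to 13, and for histone genes from 24 to 32. The rises of immediate early genes went from 4 to 13 and those of p53 targets from 4 to 8, and 3 p53 targets rose after the correction.

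**Figure D4:**
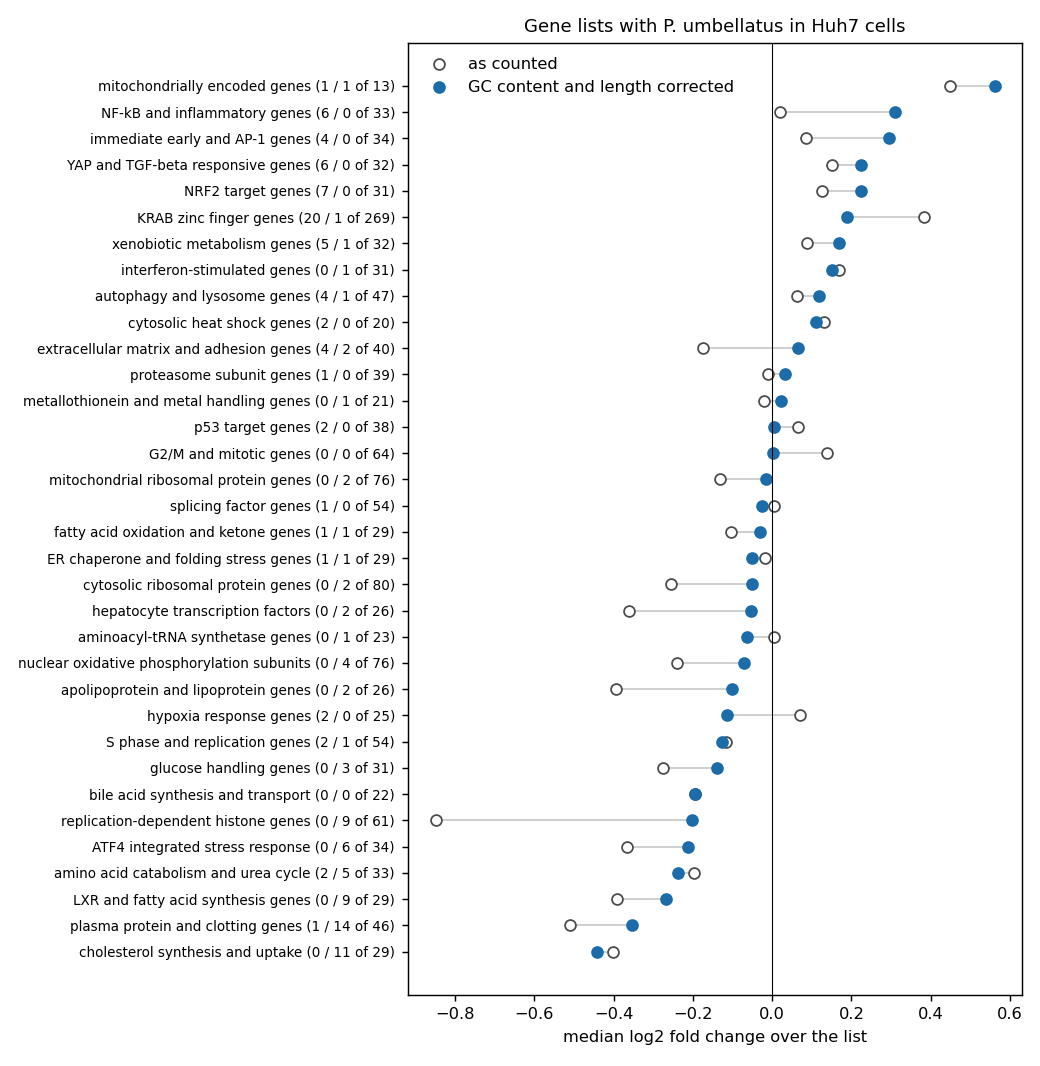
Median log2 fold change (horizontal axis) over each gene list with P. umbellatus, as counted (open) and after the correction for GC content and transcript length (filled). The numbers beside each name are the members higher and lower in both fits and the members tested; the cholesterol list has 0 and 11 of 29 and the lowest corrected median, -0.442.

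The response to the same extract in A549 cells was compared by an interaction test over 12 libraries. The change in Huh7 cells was higher than that in A549 cells for 1572 of 12776 genes (12.3%) and lower for 1482 (11.6%). After the correction these were 1687 (13.2%) and 1041 (8.15%). The cell cycle lists differed most: 56 of 64 G2/M genes and 41 of 54 S phase genes changed more positively in Huh7 cells (60 and 44 corrected, and none the other way in either fit (0)). The corrected median of the G2/M list was -0.00296 in Huh7 cells and -0.962 in A549 cells, where 62 genes fell. MKI67, a proliferation marker, fell in A549 cells by 1.09 on the log2 scale, and its interaction was 1.14 (adjusted p = 0.000548, edgeR). The p53 targets went the opposite way, with 22 of 38 changed less in Huh7 cells and 2 more. CDKN1A rose by 2.22 and MDM2 by 1.43 on the log2 scale in A549 cells, with interactions of -2.05 and -1.25.

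CYP1A1, CYP1B1 and TIPARP rose in both lines. CYP1A1 rose by 3.67 on the log2 scale in A549 cells, with an interaction of -2.19 (adjusted p = 0.000884, edgeR), and TIPARP by 1.84 with an interaction of -0.86. CYP1B1 rose by 1.77, and its interaction of 0.56 was past the threshold as counted (adjusted p = 0.0339) but not corrected (adjusted p = 0.104). UGT1A1 was called in Huh7 cells, with an interaction of 1.22 (adjusted p = 0.00649). Of 31 NRF2 targets, 10 changed more positively in Huh7 cells and 3 less (13 and 4 corrected). The median interaction of this list was 0.0524 as counted and 0.183 corrected. HMOX1, GCLC, SRXN1 and TXNRD1 were among the higher in both fits, with interactions of 0.84, 0.90, 0.35 and 0.36. GCLC fell in A549 cells (-0.28).

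Cholesterol genes fell more in Huh7 cells for 9 of 28 genes and more in A549 cells for 0, or 12 and 2 after the correction. MVD (-1.91), INSIG1 (-0.47) and SQLE (-0.32) differed between the lines in both fits. SCD fell in both lines, by 0.54 on the log2 scale in A549 cells, with an interaction of -0.03 (adjusted p = 0.866), and FDPS likewise had an interaction of -0.22 (adjusted p = 0.332). F2RL1 (interaction 1.19), CD44 (0.84) and MUC13 (2.28) changed more positively in Huh7 than in A549 cells in both fits, and NTN4, which rose in both lines, had an interaction of 0.12 (adjusted p = 0.462).

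**Figure D5:**
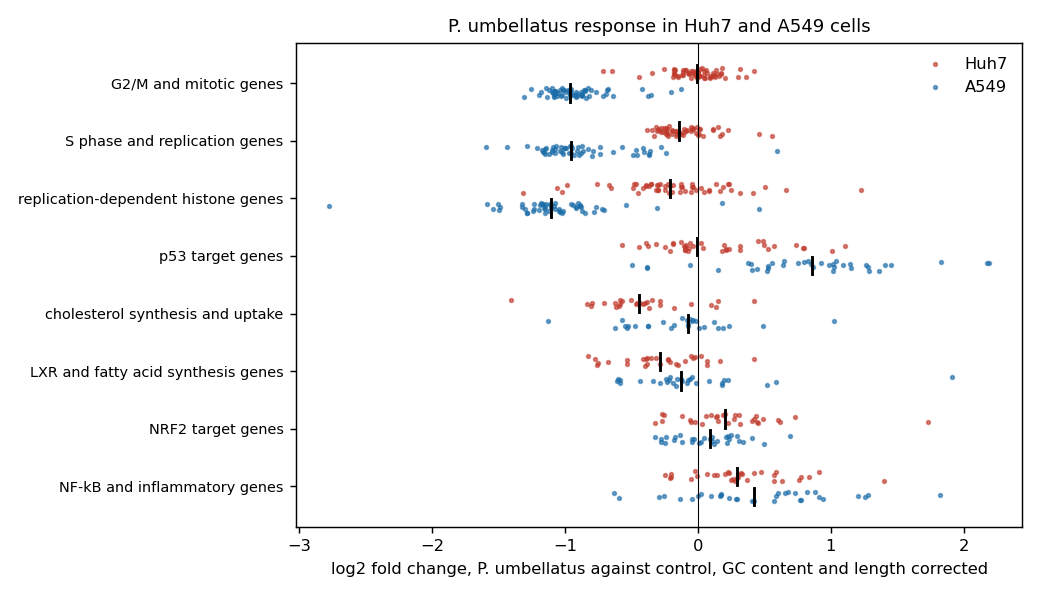
Log2 fold change with P. umbellatus against the control of the same line, corrected for GC content and transcript length (horizontal axis), 1 point per gene in Huh7 (red) and A549 (blue) cells, with black bars at the medians. The G2/M list lies around -0.00296 in Huh7 cells and around -0.962 in A549 cells, and the p53 targets around -0.00394 and 0.858.

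Set directly against the other 2 extracts in Huh7 cells, with no control libraries in the test, P. umbellatus gave 2345 higher genes (16.9%) and 1856 lower genes (13.4%) of 13839, and 1672 (12.1%) and 501 (3.62%) after the correction. Among NF-kB and inflammatory genes, 2 were higher and 15 lower with P. umbellatus than with the other extracts (0 and 6 corrected). The median log2 difference of this list was -0.376 (-0.0858 corrected). Among immediate early and AP-1 genes, 2 were higher and 18 lower (5 and 12 corrected), with a median of -0.504 (-0.219 corrected). Several other genes described above differed little between the extracts. CYP1A1 had a mean of 378 CPM with P. umbellatus, 392.3 CPM with P. chinensis and 293 CPM with B. chinense, a log2 difference of 0.16 from the mean of the other extracts (adjusted p = 0.199, edgeR) and of 0.35 after the correction (adjusted p = 0.00165). The differences of TIPARP (0.07, adjusted p = 0.534) and CYP1B1 (0.16, adjusted p = 0.391) did not pass in either fit. DLK1, at 18.7, 18.1 and 31.4 CPM, differed by -0.34 as counted (adjusted p = 0.0459) and -0.08 corrected (adjusted p = 0.66). AHSG, at 168.5, 189 and 218 CPM, likewise passed as counted (-0.27, adjusted p = 0.0276) but not corrected (0.06, adjusted p = 0.414).

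Among sterol genes, 8 of 29 were higher and 5 lower with P. umbellatus than with the other extracts as counted, and 11 higher and 0 lower corrected. INSIG1 had a mean of 132 CPM with P. umbellatus, 62.0 CPM with P. chinensis and 129 CPM with B. chinense (log2 difference 0.56, adjusted p = 0.00682), and SCD 2795, 1630 and 3025 CPM (0.33, adjusted p = 0.00691). For both genes P. umbellatus lay above P. chinensis and near B. chinense. GCLM, at 267, 147 and 159 CPM (0.80, adjusted p = 0.00682), GCLC (0.45, adjusted p = 0.00721) and UGT1A1 (0.58, adjusted p = 0.00916) had higher means with P. umbellatus than with either of the others.

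TFR2 was lower with P. umbellatus, at 0.132 CPM against 2.46 and 2.57 CPM. TF was lower as well, at 424 CPM against 474 and 629 CPM (-0.36, adjusted p = 0.0089). MUC13 was at 15.6, 32.8 and 13.3 CPM (-0.42, adjusted p = 0.0182), highest with P. chinensis. The largest differences in both fits included MLLT6 (-3.43), HRAS (-3.25), TAF15 (-3.18) and ZNF385A (-2.67), which lay below all 6 libraries of the other extracts. AK6 (1.14), HDHD2 (1.23) and HELB (1.33) lay above them. Of these, MLLT6 was also called against the Huh7 controls, and the others were not (adjusted p = 0.056 to 0.95, edgeR). ZNF385A, HDHD2 and HELB overlapped the controls. ZNF385A had a mean of 1.11 CPM with P. umbellatus and 1.23 CPM in the controls. With P. chinensis and B. chinense it was at 12.6 and 5.89 CPM. TAF15 was at 0, 0 and 7.49 CPM with P. umbellatus and at 7.93 to 34.6 CPM with the others, so its value rests on a wide spread.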

How the data were processed

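RNA was sequenced after removal of ribosomal RNA (stranded total RNA, paired ends). Per the study's methods, the authors ran kallisto on the GRCh38.p13 transcripts. The deposited values are estimated counts by gene, given as integers and not scaled for depth. How transcripts were summed per gene, and whether strand was used, is not given in the sources used here, so overlapping and near-identical genes are uncertain. Totals and their ranges are given above. Whether intervals between libraries cover any culture-to-culture variation is not known.

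Counts of 6 libraries were normalised by TMM and tested in edgeR 4.0.16 (R 4.3.3) with the quasi-likelihood test, group as the only term, prior count 2, mean count above 5 and adjusted p below 0.05 (Benjamini-Hochberg over all genes tested). The standard error (SE) is the log2 fold change over the square root of F. For the correction, the log2 level of each library relative to the mean over libraries was fitted on natural splines with 5 degrees of freedom of the GC content and log2 length of the canonical GENCODE transcript, for 13723 genes, and the fit entered as an offset. The files were estimated counts, for which the planned count test was kept. The interaction and the test against the other extracts used the same settings.

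Named genes were the 15 largest rises and 15 largest falls among genes called in both fits, without overlap and with a mean of at least 50 counts, the called members of lowest p in each list (4 at most, or the 2 most abundant members where fewer than 2 were called), E2F1 and TFDP1, and the 5 largest in each direction in the other 2 contrasts. Other list members named in the text were chosen after their values were seen. The members and lists were chosen with earlier results of these data known. Same-numbered libraries did not deviate together (r across genes 0.0275, 0.0195 and 0.00468). Alternatives included DESeq2 1.42.0, limma 3.58.1 and other filters and scalings. The pipeline was tested on simulated data. Promoters were read from RefSeq windows of 250 bases before the start.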

Additional observations from a re-analysis of the deposited data

Results flagged for a closer look

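The test of the difference between the lines (Huh7 minus A549) put 1572 genes higher and 1482 genes lower with P. umbellatus. Among those with the largest difference in both fits, ZNF506 differed by 2.485 on the log2 scale (adjusted p = 0.00878, edgeR), from 35.2 to 37.3 CPM to 53.03 to 90.3 CPM in Huh7 cells and from 2.91 to 4.23 CPM to 0.385 to 2.77 CPM in A549 cells. FGB differed by 2.479, since it fell in A549 cells from 5.28 to 8.07 CPM to 0.975 to 1.81 CPM. MUC13 differed by 2.276, at 22.9 to 24.6 CPM in A549 controls and 16.9 to 18.02 CPM with the extract. NEB differed by 2.21, with 29.0 to 38.5 CPM and 7.58 to 9.54 CPM in A549 cells, and its own change in Huh7 cells (0.26) did not pass the test. CIP2A differed by 2.021, and 1 A549 control of it (12.9 CPM) lay within the treated range.

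MLLT6 differed by -4.516 (adjusted p = 0.000406, edgeR), at 15.1 to 36.9 CPM in A549 controls and 52.8 to 58.0 CPM with the extract. SOCS1 differed by -3.529, but was at most 1.04 CPM in every A549 library. BTBD8 differed by -3.383, with 0 CPM in 2 treated Huh7 libraries, so the fitted size depends on the prior count. PPAN-P2RY11 differed by -3.338 and C2orf72 by -3.281, with 1.55 to 2.11 CPM of the latter in A549 controls and 2.70 to 6.10 CPM with the extract.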

How the results depend on the processing

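The counts of called genes moved with the model. As counted, DESeq2 called 1407 genes higher and 1830 lower, limma's voom with sample quality weights 1746 and 2137, and a fit on all 12 Huh7 libraries 2367 and 2616. Thinning each library to the lowest total left 357 higher. With a minimum absolute log2 fold change of 1, 64 and 316 remained past both limits. With the replicate number as a block, 2 genes were higher (CYP1A1 and F2RL1) and 5 lower (RNPEPL1, AHSG, NAGS, DLK1 and MLLT6), and with the block and the correction for GC content and transcript length 278 and 298. In the interaction test, the block gave 1021 higher genes. These numbers share no litter, batch or day in the labels. Against the other extracts, the correction left 501 lower genes. With a library left out in turn, the calls ranged from 0 to 1565 higher and 1 to 2041 lower as counted, and with the correction 87, 103 and 76 higher and 121, 126 and 102 lower without control replicates 1, 2 and 3, and 478, 658 and 972 higher and 435, 665 and 780 lower without treated replicates 1, 2 and 3. The ranges were 805 to 2267 and 958 to 2249 for the interaction, and 1409 to 2931 and 1083 to 2695 against the other extracts. The cause was not tested.

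Among genes named for the comparison with the controls, signs turned for 4. ZNF385A, named for its difference from the other extracts, which kept its sign, went from -0.09 to 0.55 against the controls with the correction and passed in neither fit. With the correction, MRPL55 was at 0.228, MRPL12 at 0.2999, CRELD2 at 0.02012 and MX2 at 0.003692, and with the block and the correction at 0.2016, 0.298, 0.01775 and 0.003747. MX2, at -0.02 as counted, was also at 0.004852 with upper quartile scaling and at 0.0167 after thinning, and ranged from -0.05808 to 0.008702 with a library left out (0.002265 without treated replicate 2). The treated libraries held fewer counts than the controls, which limits genes near 1 CPM.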
